A study of Homo sapiens with 12 samples.

Results

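The heterogeneous nuclear ribonucleoprotein (HNRNP) and serine/arginine-rich splicing factor (SRSF) genes were followed in prostate cancer cells with lowered or raised GALNT7, an enzyme that adds GalNAc sugars to proteins in the secretory pathway. Their members are the protein-coding genes of GENCODE release 29 whose symbol begins with HNRNP, or is SRSF followed by digits, and which stand in the tables of both cell lines. These are 39 of 59424 genes, made up of 27 HNRNP and 12 SRSF genes. CWR22Rv1 cells, a prostate cancer line grown from a xenograft, carried either a lentiviral control shRNA (shControl) or GALNT7 knockdown (GALNT7 KD). DU145 cells, a prostate cancer line from a brain metastasis, carried a lentiviral control ORF (the OE control) or overexpressed GALNT7 (GALNT7 OE). Each group had 3 biological replicates, giving 12 libraries of polyadenylated, strand-kept RNA. All 4 groups are stable lines made with lentiviral particles, the controls included, and each perturbation was made in only 1 of the cell lines. Whether a group comes from 1 clone is not given in the sources used here.

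HNRNP proteins coat newly made transcripts, and many of them hold back the use of nearby exons or splice sites. SR proteins bind exonic enhancers through their RNA recognition motifs and help to recruit the spliceosome through a domain rich in arginine and serine, which is phosphorylated by the SRPK and CLK kinases. Members of both families often act against each other on the same exon, HNRNPA1 and SRSF1 being the textbook pair, and many limit their own level by splicing their transcripts into forms that are destroyed by nonsense-mediated decay.

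After GALNT7 OE in DU145 cells, 29 of the 35 members tested were higher and 1 was lower, where 22.9% of all genes tested were higher and 20.5% lower (41% and 22.8% of genes with a mean of at least 1000 normalised counts). After GALNT7 KD in CWR22Rv1 cells, none was higher and 8 were lower, by smaller amounts, where 5.28% of all genes tested were higher and 3.79% lower (8.5% and 6.27% of genes with a mean of at least 1000). HNRNPA2B1 and SRSF3 more than doubled with overexpression, to 2.25 and 2.22 times the level of the OE control, while their log2 fold changes in knockdown were -0.09 and -0.03. HNRNPUL1, HNRNPH3, HNRNPA1, HNRNPD, SRSF1 and SRSF2 fell in knockdown and rose in overexpression, and SRSF5 fell in both. In 6 knockdown fits that each left out 1 library, HNRNPD was called in 2, SRSF1 in 1 and SRSF2 in 0. The other members of this group were called in all 6. HNRNPA1 lies on chromosome 12, and its knockdown value less the median of that chromosome was 0.002.

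The promoters of some of the members named above are shown for the motif letters that each holds, and no motif searched is common to all of them. A window of 300 bases, from 250 before to 50 after a RefSeq start site on GRCh38.p14, was given for 35 of the 39 members, with 49 windows in all. HNRNPA1, HNRNPA1P48, HNRNPCL3 and SRSF2 had none. Both strands were searched for the letters of some common promoter motifs. The CCAAT box was searched as written in its name, and the E-box of MYC and related factors was searched as CACGTG. For E2F factors the letters were TTTGGCGC or TTTCCCGC, and for the cyclic AMP response element they were TGACGTCA. The letters searched for ETS factors were CCGGAAG, while for the GC box of SP factors the search used CCCGCCC. The 250 bases before the start are printed on the strand of the gene, 5′ to 3′, and capitals mark any of these letters on either strand. HNRNPA2B1 (chr7:26200747-26200996, minus strand) and SRSF3 (chr6:36594112-36594361, plus strand) had the largest increases with overexpression among members above 1000 normalised counts, and both hold CCAAT, on the printed strand or as its complement ATTGG.
HNRNPA2B1: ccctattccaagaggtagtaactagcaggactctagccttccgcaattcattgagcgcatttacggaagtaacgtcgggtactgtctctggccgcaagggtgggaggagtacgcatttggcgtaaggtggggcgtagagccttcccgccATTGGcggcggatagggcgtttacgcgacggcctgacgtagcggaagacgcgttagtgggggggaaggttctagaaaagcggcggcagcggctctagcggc
SRSF3: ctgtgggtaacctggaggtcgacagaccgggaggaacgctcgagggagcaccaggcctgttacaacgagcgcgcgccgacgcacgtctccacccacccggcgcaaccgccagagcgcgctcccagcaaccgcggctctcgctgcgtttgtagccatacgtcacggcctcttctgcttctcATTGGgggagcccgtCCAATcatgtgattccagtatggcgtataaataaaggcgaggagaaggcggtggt
HNRNPH3 (chr10:68331443-68331692, plus strand), HNRNPUL1 (chr19:41264122-41264371, plus strand) and HNRNPD (chr4:82373992-82374241, minus strand) fell in knockdown and rose in overexpression. HNRNPH3 and HNRNPUL1 each have 3 RefSeq windows, of which 1 is printed, in each case the only 1 that holds CCAAT. The other windows of HNRNPH3 hold none of the letters searched. Of the other HNRNPUL1 windows, 1 holds CACGTG and CCCGCCC and 1 holds none. In HNRNPUL1 the E2F and GC box letters overlap, as do 2 CCAAT matches on opposite strands. HNRNPD holds CACGTG and the ETS and GC box letters but no CCAAT. The window of SRSF1, which also fell in knockdown and rose in overexpression, is not printed and holds none of the letters searched.
HNRNPH3: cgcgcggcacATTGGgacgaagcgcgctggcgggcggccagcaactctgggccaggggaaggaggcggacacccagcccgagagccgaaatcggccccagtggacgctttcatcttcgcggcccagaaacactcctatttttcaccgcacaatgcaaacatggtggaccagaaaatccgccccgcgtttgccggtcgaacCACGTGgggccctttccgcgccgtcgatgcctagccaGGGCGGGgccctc
HNRNPUL1: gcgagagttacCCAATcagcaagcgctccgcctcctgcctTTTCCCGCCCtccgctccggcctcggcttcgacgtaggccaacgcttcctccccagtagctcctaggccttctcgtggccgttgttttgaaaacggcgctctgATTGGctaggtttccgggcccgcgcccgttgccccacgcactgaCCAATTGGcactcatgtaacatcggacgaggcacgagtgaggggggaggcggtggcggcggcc
HNRNPD: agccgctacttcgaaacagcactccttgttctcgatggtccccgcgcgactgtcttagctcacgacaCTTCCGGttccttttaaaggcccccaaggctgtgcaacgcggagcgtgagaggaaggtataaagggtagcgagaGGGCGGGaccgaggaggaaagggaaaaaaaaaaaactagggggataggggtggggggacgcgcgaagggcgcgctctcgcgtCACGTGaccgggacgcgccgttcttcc
SRSF5 (chr14:69766892-69767141, plus strand), the member lower in both comparisons, holds ETS letters and neither CCAAT nor CACGTG.
SRSF5: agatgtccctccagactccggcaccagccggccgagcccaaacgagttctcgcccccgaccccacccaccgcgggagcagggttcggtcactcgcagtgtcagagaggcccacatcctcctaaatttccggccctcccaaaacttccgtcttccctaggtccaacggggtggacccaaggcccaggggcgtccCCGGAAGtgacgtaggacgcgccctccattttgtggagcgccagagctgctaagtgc
CCAAT stood in a window of 20 of the 24 HNRNP members that have one, and of 2 of 11 SRSF members, SRSF3 and SRSF8. Over all 35116 RefSeq windows of the table, 34.6% held it, as did 51% of the 49 member windows. CACGTG stood in a window of 7 of 24 HNRNP and 0 of 11 SRSF members, in 16.3% of the member windows and 7.26% of all. The 7 were HNRNPA3, HNRNPD, HNRNPDL, HNRNPH2, HNRNPH3, HNRNPM and HNRNPUL1. CCCGCCC stood in 49% of the member windows and 33.1% of all windows, CCGGAAG in 10.2% and 10.3%, the E2F letters in 6.12% and 2.27%, and TGACGTCA in 0% and 1.85%. Member windows had a median GC content of 64%, against 58.7% over all windows, and genes with several windows had more chances to hold a match. A match describes letters only.

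The deposited values are normalised counts, reads per gene divided by a size factor for each library, and each cell line has a scaling of its own, so no level is set against one from the other line. Recovered depth was 18364512 to 24356910 reads per library. GALNT7 itself had normalised counts of 862, 1042 and 1093 in shControl and 481, 501 and 400 in GALNT7 KD (log2 fold change -1.11, standard error (SE) 0.129, limma adjusted p=0.0051). It had 1051, 928 and 913 in the OE control and 1988, 2221 and 2334 in GALNT7 OE (1.18, SE 0.0863, limma adjusted p=8e-05). KRT8 and KRT18, keratins of luminal prostate epithelium, were at 4479 or more in every library.

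Some genes listed as markers of other cell types, and the genes of the cell cycle lists, moved with overexpression of GALNT7 in this cell line. The 4 leukocyte markers summed to 2583 to 2759 in the OE control and 986 to 1121 in GALNT7 OE, nearly all of it CD68 (log2 fold change -1.37), while CD3E was at 0 and PTPRC at most 2.1 in every library. The 3 fibroblast markers summed to 291 to 422 and 61.9 to 157, with COL1A1 the 1 that passed (log2 fold change -2.01), and the 2 endothelial markers to 9.2 to 11.5 and 7.02 to 51.4 with none past the threshold. In CWR22Rv1 cells none of these 9 markers passed. Of the Seurat cell cycle lists, each of the 43 S phase and 54 G2/M genes was higher after overexpression, with median log2 fold changes of 1.10 and 1.70. In knockdown 3 S phase genes were higher and 2 lower, and 6 G2/M genes were lower. Their part in the member results was not tested. In bulk RNA of a cell line, fewer cells expressing a gene and less of its RNA per cell cannot be told apart.

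Of the 39 members, 35 had a mean of at least 5 normalised counts over the 6 libraries of each line and were tested, 23 HNRNP and 12 SRSF genes. The 4 not tested are HNRNPCL1, HNRNPCL2, HNRNPCL3 and HNRNPCL4, short genes on chromosome 1 related to HNRNPC. Their values ranged from 0 to 3.01 normalised counts, and HNRNPCL3 was at 0 in all 12 libraries. HNRNPUL2-BSCL2 is a readthrough of HNRNPUL2 into the next gene whose only annotated transcript is of the nonsense-mediated decay type. HNRNPA1P48 bears the name of a pseudogene although release 29 types it as protein-coding.

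Per kilobase of principal transcript, the members tested covered a wide range within each line. In shControl cells the highest levels were HNRNPA2B1 (14461 normalised counts per kb), HNRNPC (13352), HNRNPA1 (10784) and HNRNPK (6296), followed by SRSF1 (5288) and SRSF9 (4973). HNRNPA2B1 packages messenger RNA, HNRNPC binds uridine-rich runs near splice sites and HNRNPK binds cytosine-rich RNA. SRSF12, a repressor of splicing, was the lowest of the members tested, at 22.3 per kb, below HNRNPA1P48 (70.4) and HNRNPA1L2 (79.3). In OE control cells HNRNPC came first (9602), ahead of HNRNPA2B1 (4967), HNRNPK (4788) and HNRNPA1 (3655), and SRSF5 was the highest SRSF gene (3140). With GALNT7 OE the leading genes were HNRNPC (14021), HNRNPA2B1 (11179), HNRNPK (6388) and HNRNPA1 (6088), and SRSF1 (4307) stood above SRSF5 (2534) among the SRSF genes. The order depends on which transcript length is taken, and HNRNPA1, whose principal transcript is 4121 bases long here, would rank higher with a shorter one.

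**Figure D1:**
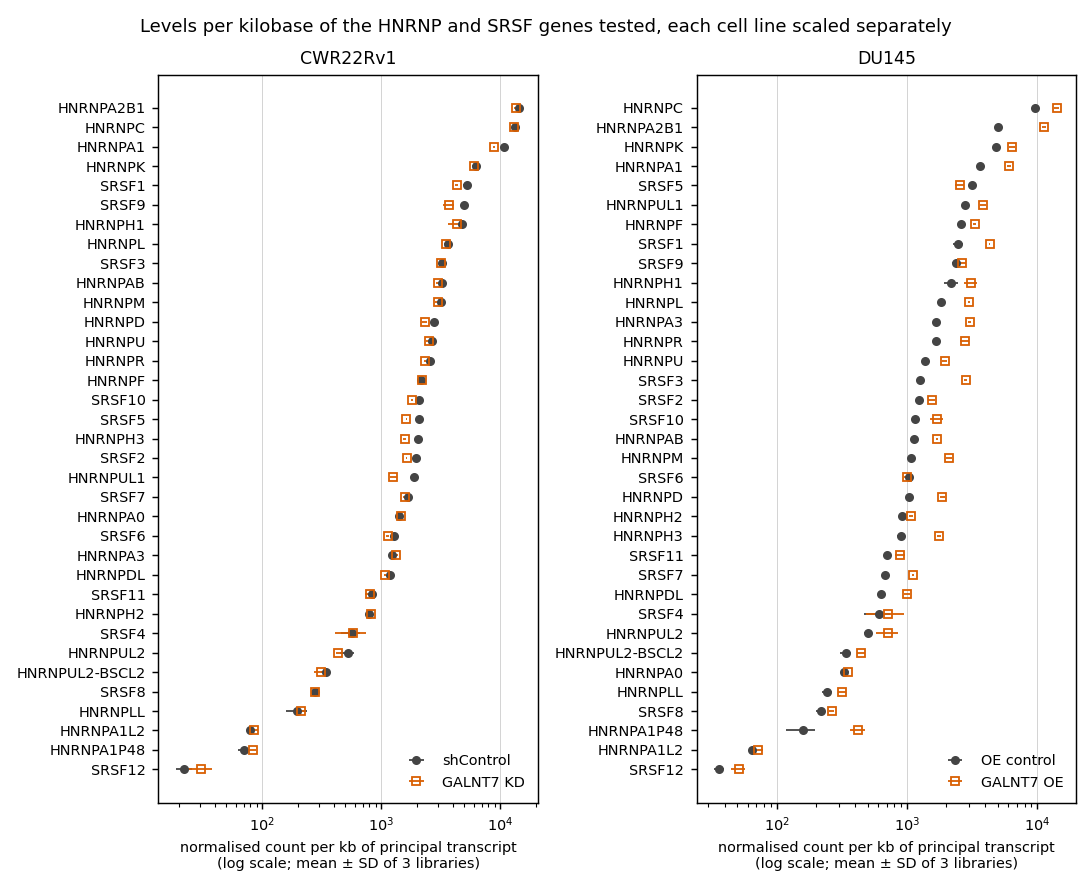
Normalised counts per kilobase of principal transcript (log scale) of the 35 members tested in CWR22Rv1 (left) and DU145 cells (right), sorted by the control group. Symbols are means of 3 libraries and bars are SD, filled circles the control groups and open squares GALNT7 KD or OE. HNRNPA2B1, HNRNPC, HNRNPA1 and HNRNPK are the 4 highest in the control group of both lines, and SRSF12 is the lowest.

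Together the 27 HNRNP genes took 1.18% to 1.20% of all normalised counts in the shControl libraries and 1.09% to 1.10% in the GALNT7 KD libraries. In DU145 cells they took 0.554% to 0.570% in the OE control and 0.851% to 0.882% in GALNT7 OE. The SRSF genes took 0.244% to 0.257% in shControl, 0.220% in each of the 3 GALNT7 KD libraries, 0.138% to 0.144% in the OE control and 0.179% to 0.184% in GALNT7 OE. Neither family's share overlapped between the groups of either line. The shares are values with no test.

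The first comparison asked which members differed when GALNT7 was lowered in CWR22Rv1 cells. Of 23 HNRNP genes 4 (17.4%) were lower and 0 higher at a limma adjusted p under 0.05, with a median log2 fold change of -0.09. Of 12 SRSF genes 4 (33.3%) were lower and 0 higher, with a median of -0.13. Over all 17906 genes tested 3.79% were lower and 5.28% higher, with a median of -0.01, and over the 4755 genes with a mean of at least 1000, a level closer to that of most members, 6.27% were lower and 8.5% higher.

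HNRNPUL1, a relative of HNRNPU with roles in RNA export and the response to DNA damage, had the largest difference. Its normalised counts were 6519, 6933 and 6796 in shControl and 4703, 4185 and 4668 in GALNT7 KD. All 3 knockdown libraries lay below all controls, at 66.9% of the control mean (log2 fold change -0.58, SE 0.0583, limma adjusted p=0.0033). It overlaps TGFB1 on the other strand.

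HNRNPH3, of the guanine-run-binding F/H group, had 4848, 4780 and 4778 in shControl and 3752, 3604 and 3721 in GALNT7 KD. The libraries of each group were tight and the groups stood apart (log2 fold change -0.38, SE 0.0408, limma adjusted p=0.0040). HNRNPH1, its abundant relative, had 10827, 10992 and 11167 in shControl but 8642, 9287 and 11708 in GALNT7 KD. One knockdown library was above all controls, and HNRNPH1 did not pass (limma adjusted p=0.37).

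HNRNPA1, which shuttles between nucleus and cytoplasm and silences exons, had 44911, 42532 and 45875 in shControl and 36907, 37578 and 35627 in GALNT7 KD. The groups did not overlap (log2 fold change -0.28, SE 0.0367, limma adjusted p=0.0084). HNRNPA1 lies on chromosome 12, where 202 of 922 genes tested (21.9%) were lower in knockdown and 19 higher, with a median log2 fold change of -0.28. Set against that median, the value of HNRNPA1 is 0.002. The part of the chromosome in this result was not tested.

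HNRNPD, also known as AUF1, which binds AU-rich elements and governs messenger RNA decay, had 8431, 8634 and 8072 in shControl and 7232, 7310 and 6690 in GALNT7 KD. The groups did not overlap (log2 fold change -0.24, SE 0.0497, limma adjusted p=0.031). Its close relative HNRNPDL, at -0.16, missed the threshold with a limma adjusted p of 0.075.

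SRSF9, a short SR protein related to SRSF1, had 6053, 6103 and 5760 in shControl and 4437, 4009 and 4937 in GALNT7 KD. The knockdown libraries were spread over a wider range than the controls but lay below them (log2 fold change -0.43, SE 0.0782, limma adjusted p=0.022). SRSF9 is the other member on chromosome 12, and its value less the chromosome median is -0.15. It overlaps GATC on the other strand.

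SRSF5, first described as a gene induced by insulin, had 3462, 3372 and 3447 in shControl and 2702, 2686 and 2656 in GALNT7 KD. These are among the tightest values of the family, with no overlap (log2 fold change -0.35, SE 0.0432, limma adjusted p=0.0065).

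SRSF1, the founding SR protein and a known oncoprotein, had 8536, 8016 and 7448 in shControl and 6603, 6355 and 6670 in GALNT7 KD (log2 fold change -0.29, SE 0.0569, limma adjusted p=0.028). SRSF2, which binds both cytosine-rich and guanine-rich enhancers, had 5098, 4528 and 4624 in shControl and 3956, 4011 and 3871 in GALNT7 KD (-0.27, SE 0.0565, limma adjusted p=0.035). In both genes the controls varied more than the knockdown libraries, and the groups did not overlap. Of the 31-base words of the annotated SRSF1 transcripts, 53% also occur in those of AC015813.2, which overlaps it on the same strand.

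Of the other members studied most, SRSF3, the smallest SR protein, had 8179, 8346 and 8266 in shControl and 8070, 8129 and 8029 in GALNT7 KD. The groups did not overlap but differed by only a few percent (log2 fold change -0.03, SE 0.0327, limma adjusted p=0.57). HNRNPC had 23041, 23550 and 22066 against 22457, 22891 and 22322, and the groups overlapped (-0.02, limma adjusted p=0.75). HNRNPK had 19269, 18065 and 18103 against 17645, 18243 and 16933, again with overlap (-0.07, limma adjusted p=0.35).

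HNRNPA2B1 had 38326, 38599 and 36041 in shControl and 35608, 33888 and 36401 in GALNT7 KD, with 1 knockdown library inside the control range (-0.09, limma adjusted p=0.20). SRSF7, a relative of SRSF3 with a zinc knuckle, had 4050, 4299 and 4236 against 4056, 3809 and 3973 (-0.09, limma adjusted p=0.30). Log2 fold changes of the 27 members that did not pass ran from -0.25 for HNRNPUL2 to 0.45 for SRSF12.

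The exact permutation test of a single gene cannot give less than 0.1 with 3 libraries against 3, and gave 0.1 for each of the 8. Leaving out 1 library at a time kept 4 to 6 of the 8 calls: HNRNPUL1, HNRNPH3, HNRNPA1 and SRSF5 passed in all 6 such fits, HNRNPD and SRSF9 in 2, SRSF1 in 1 and SRSF2 in none.

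**Figure D2:**
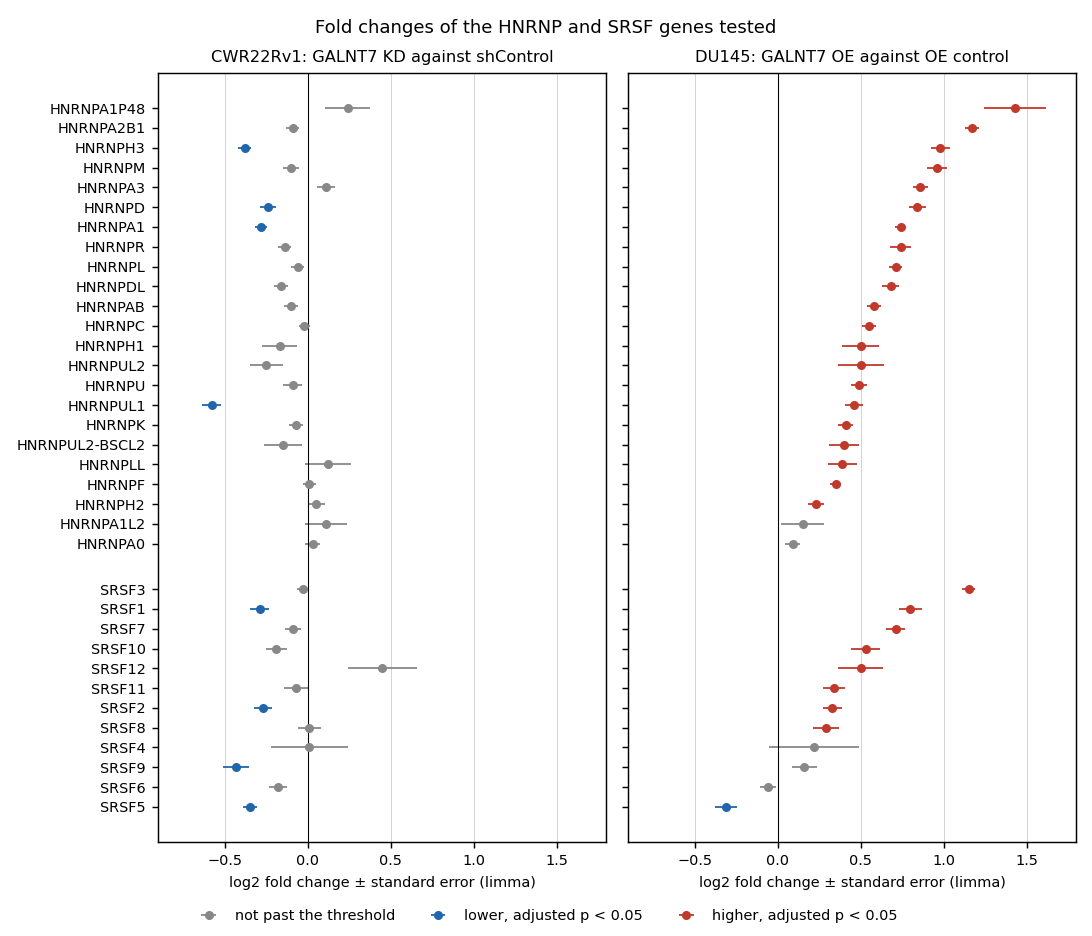
Log2 fold changes with standard errors from limma for the 35 members tested, in GALNT7 KD (left) and GALNT7 OE (right), sorted by the right panel within each family. Blue marks lower and red higher at an adjusted p under 0.05, and grey the rest. In knockdown 8 members are blue and none is red, while in overexpression 29 are red and SRSF5 alone is blue.

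The second comparison asked the same of DU145 cells with raised GALNT7. Of 23 HNRNP genes 21 (91.3%) were higher and 0 lower, with a median log2 fold change of 0.55. Of 12 SRSF genes 8 (66.7%) were higher and 1 lower, with a median of 0.34. Over all 18705 genes tested 22.9% were higher and 20.5% lower (median -0.01), and over the 5218 genes with a mean of at least 1000, 41% were higher and 22.8% lower (median 0.13).

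Among the A/B-type HNRNP proteins, which pair RNA recognition motifs with a glycine-rich tail, HNRNPA2B1 had normalised counts of 13413, 12323 and 13066 in the OE control and 28146, 28898 and 30284 in GALNT7 OE. The lowest overexpression library was far above the highest control (log2 fold change 1.17, SE 0.0437, limma adjusted p=5.8e-06). HNRNPA1 had 15266, 15129 and 14790 in the OE control and 24621, 24652 and 25988 in GALNT7 OE (0.74, SE 0.033, limma adjusted p=1e-05). HNRNPA3 had 3066, 3167 and 3259 against 5623, 5740 and 5913 (0.86, SE 0.0438, limma adjusted p=1.7e-05).

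The groups of HNRNPA1 and HNRNPA3 were far apart as well. The processed copies of HNRNPA3 named as its pseudogenes held a further 20.7% of its count in DU145 cells. HNRNPAB was also higher (0.58), whereas HNRNPA0, which has no intron, had 2916, 2852 and 2892 against 3165, 3051 and 2997 and did not pass (0.09, limma adjusted p=0.15). HNRNPA1L2, another intronless copy, did not pass either (0.15, limma adjusted p=0.41).

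HNRNPA1P48 had the highest fold change of all members, from 214, 213 and 319 in the OE control to 561, 698 and 728 in GALNT7 OE (1.43, SE 0.186, limma adjusted p=0.0010). The groups did not overlap, but 58.4% of the 31-base words of its annotated transcripts also occur in those of another gene, mostly HNRNPA1. Reads in such stretches cannot be told apart. The same holds for 76.4% of the words of HNRNPA1L2 and 25% of those of HNRNPA1 itself, and for 0% of those of HNRNPA2B1.

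HNRNPH3 again led the F/H group, with 2191, 1961 and 2116 in the OE control and 4057, 4024 and 4266 in GALNT7 OE (0.98, SE 0.0572, limma adjusted p=3e-05). Its level nearly doubled in every library. HNRNPF had 6927, 6980 and 6893 against 8986, 8808 and 8642 (0.35, SE 0.0333, limma adjusted p=0.00026), and HNRNPH2, encoded on the X chromosome, had 1981, 2070 and 2048 against 2300, 2408 and 2449 (0.23, SE 0.0498, limma adjusted p=0.0091). HNRNPH1 passed at 0.50 (SE 0.112, limma adjusted p=0.011) with libraries spread from 6178 to 7845 after overexpression.

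HNRNPM, which binds guanine- and uridine-rich RNA and is known for splicing changes in metastasis, had 2810, 2695 and 2555 in the OE control and 4926, 5366 and 5429 in GALNT7 OE. Every overexpression library was well above every control (0.96, SE 0.0586, limma adjusted p=3.6e-05). HNRNPD had 3292, 3039 and 3143 against 5473, 5611 and 5921 (0.84, SE 0.0509, limma adjusted p=3.5e-05), and HNRNPDL was at 0.68. HNRNPL, a CA-repeat binder known from prostate cancer, and HNRNPR were at 0.71 and 0.74.

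Of the other abundant members, HNRNPC had 16927, 16028 and 16418 against 22790, 24270 and 25034 (0.55, SE 0.0426, limma adjusted p=0.00011), and HNRNPK had 14288, 13884 and 13985 against 17912, 18313 and 20022 (0.41, SE 0.0463, limma adjusted p=0.00049). Neither overlapped between groups. HNRNPUL1, the member lowest in knockdown by fold, had 10122, 9475 and 10190 in the OE control and 14524, 13416 and 12921 in GALNT7 OE (0.46, SE 0.0534, limma adjusted p=0.00061). HNRNPU, the scaffold attachment protein, was at 0.49, HNRNPLL at 0.39 and HNRNPUL2 at 0.50 with overexpression libraries from 3051 to 4517. HNRNPUL2-BSCL2 was at 0.40, but 99.2% of the words of its annotated transcript also occur in those of other genes, 59.5% in HNRNPUL2. It shares 43.6% of the words of HNRNPUL2. Reads in such stretches cannot be told apart, so its call, counted among the HNRNP genes that were higher, is not independent of those genes.

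Among the SR proteins SRSF3 had 3282, 3239 and 3160 in the OE control and 7138, 7038 and 7363 in GALNT7 OE. Replicates lay within a few percent of each other, and every overexpression library was more than double every control (log2 fold change 1.15, SE 0.0396, limma adjusted p=4.3e-06). SRSF1 had 3953, 3375 and 3932 against 6455, 6580 and 6512 (0.80, SE 0.0669, limma adjusted p=0.00014), and SRSF7 had 1630, 1678 and 1794 against 2762, 2746 and 2848 (0.71, SE 0.0546, limma adjusted p=9.7e-05). These genes, too, showed no overlap.

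SRSF2 rose less, from 2941, 2962 and 2952 to 3597, 3585 and 3998 (0.33, SE 0.055, limma adjusted p=0.0028). SRSF11 had 2684, 2601 and 2683 against 3065, 3414 and 3630 (0.34, SE 0.0682, limma adjusted p=0.0067), and SRSF8, which has a close relation to SRSF2, had 861, 950 and 813 against 1027, 1055 and 1123 (0.29, SE 0.0795, limma adjusted p=0.023). All 3 were small, non-overlapping increases. SRSF10, a splicing repressor when dephosphorylated, was at 0.53, and SRSF12 at 0.50 with at most 209 normalised counts in any library of this line.

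SRSF5 went the other way, with 5246, 4874 and 5309 in the OE control and 4042, 3908 and 4501 in GALNT7 OE. All overexpression libraries lay below all controls (-0.31, SE 0.0655, limma adjusted p=0.0082). SRSF6, which like SRSF4 and SRSF5 has a pair of RNA recognition motifs and a long RS domain, had 4440, 4425 and 4650 against 4321, 4133 and 4498 and did not pass (-0.06, limma adjusted p=0.34). SRSF9 had 3066, 2868 and 2657 against 3423, 3203 and 2957, with overlapping groups (0.16, limma adjusted p=0.14).

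SRSF4 varied between replicates too much to pass in either comparison. Its coefficients of variation were 18%, 29.1%, 22.8% and 32.5% in shControl, GALNT7 KD, OE control and GALNT7 OE. Replicate 3 was the lowest in all 4 groups, a pattern shared by 180 of the 16124 genes tested in both lines. Its log2 fold changes were 0.01 (SE 0.233) in knockdown and 0.22 (SE 0.272) in overexpression.

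Leaving out 1 library at a time kept 27 to 30 of the 30 overexpression calls, and the ones lost were among HNRNPUL2, SRSF8 and SRSF12. Rescaling both groups to the same 75th percentile lowered the median of all genes from -0.01 to -0.11, left HNRNPH2 and SRSF8 without a call and made SRSF6 lower.

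**Figure D3:**
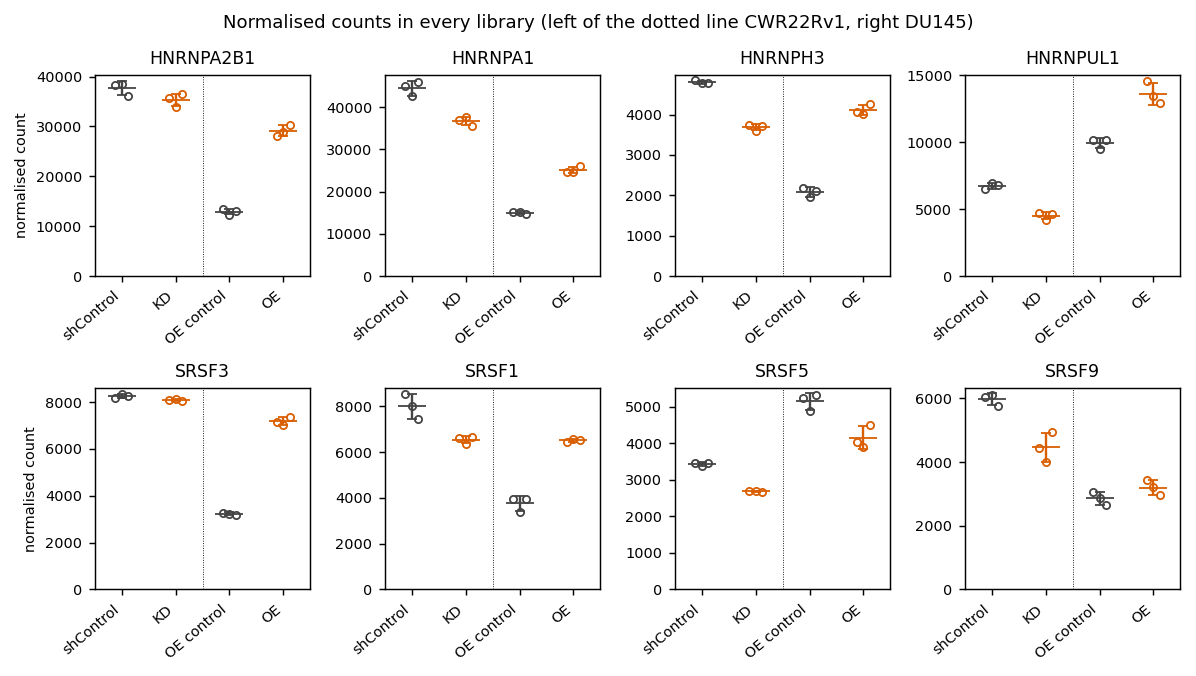
Normalised counts (axes from 0) of 8 members in every library. Open circles are libraries and bars the mean ± SD of 3, with control groups in grey and GALNT7 KD or OE in orange; the cell lines were scaled separately, so points are to be compared within each side of the dotted line. HNRNPH3, HNRNPA1, HNRNPUL1 and SRSF1 are lower in KD and higher in OE, SRSF3 and HNRNPA2B1 stand far apart on the OE side and differ by -0.03 and -0.09 on the log2 scale in KD, and SRSF5 is lower in both.

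The comparisons share no libraries, so the calls of each member can be set side by side. Of the 23 HNRNP genes 4 fell in knockdown and rose in overexpression, 17 were past the threshold in overexpression but not in knockdown, and 2 (HNRNPA0 and HNRNPA1L2) in neither. Of the 12 SRSF genes 2 fell in knockdown and rose in overexpression, 6 passed in overexpression but not in knockdown, SRSF9 passed in knockdown but not in overexpression, SRSF4 and SRSF6 in neither, and SRSF5 was lower in both. How many of all genes have each pair of calls was not counted. Singly, 3.79% of all genes tested were lower in knockdown and 22.9% higher in overexpression. Of genes with a mean of at least 1000 the shares were 6.27% and 41%. Among the opposite pairs, HNRNPA1 was at 0.002 in knockdown less the median of its chromosome. SRSF2 passed in 0 of the 6 knockdown fits with 1 library left out. Whether the change of a gene differs between the lines was not tested, since line and perturbation cannot be told apart.

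The annotation of the members differs from that of most genes in a way the rule did not use. All 12 SRSF genes and 14 of 27 HNRNP genes have at least 1 transcript of the nonsense-mediated decay type in release 29, against 35.8% of 19662 protein-coding genes. SRSF7 has 6 such transcripts of 12, and HNRNPU 9 of 31. Genes with more annotated transcripts have more chances to hold one, and transcript number was not matched. The median share of a gene's transcripts that are of this type was 25% for SRSF, 3.03% for HNRNP and 0% for protein-coding genes. Gene totals add these forms to the coding ones, so the values do not tell how much of a member's RNA can be translated.

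The counts of the further gene lists are to be read against the same background of 22.9% of all genes higher and 20.5% lower in overexpression (median -0.01) and 5.28% higher and 3.79% lower in knockdown (median -0.01). Other proteins are counted among the HNRNPs under symbols of their own. Of 16 tested, 10 were higher and 1 lower in overexpression (median 0.41). SYNCRIP, known as HNRNP Q, was higher (2744, 2801 and 2883 against 5260, 5925 and 5840; log2 fold change 1.01), and RALY, a relative of HNRNPC, was lower (-0.25). In knockdown 3 were lower and 0 higher (median -0.10). PTBP3, a polypyrimidine tract binder, was at -0.53, PCBP2, known as HNRNP E2, went from 16152, 16986 and 16266 to 12523, 11932 and 12489 (-0.42), and RBMX, known as HNRNP G, was at -0.23. PCBP2 lies on chromosome 12.

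SR-like and SR-related factors were mixed. In overexpression 8 of 22 (36.4%) were higher and 6 (27.3%) lower (median 0.15), against 41% and 22.8% of genes with a mean of at least 1000, and in knockdown 4 were lower and 0 higher (median -0.21). TRA2B, a partner of SR proteins at enhancers, rose from 2432, 2524 and 2554 to 4516, 4319 and 3812 in overexpression (0.75), as did its paralog TRA2A (0.52). RSRP1 had 994, 1061 and 1006 in the OE control and 592, 448 and 520 in GALNT7 OE, the largest decrease of the list (-0.98), and ARGLU1 was lower in both comparisons (-0.46 in overexpression and -0.53 in knockdown). SCAF11 (-0.38) and RSRC2 (-0.35), both on chromosome 12, and ACIN1 (-0.34) were the other genes lower in knockdown.

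Of the kinases, phosphatases and importins that act on SR proteins, 12 of the 13 listed were matched. In overexpression 4 of 11 (36.4%) were higher and 1 lower, with a median of 0.13, which is a share below the 41% of genes with a mean of at least 1000 and a median equal to theirs. The importins TNPO3, which carries SR proteins into the nucleus, and TNPO1, which carries HNRNPA1, were higher (0.55 and 0.53), and the kinase CLK1 was lower (376, 411 and 402 against 310, 291 and 272; -0.45). In knockdown SRPK2, a kinase of SR proteins in the cytoplasm, was higher (1900, 1781 and 1768 against 2191, 2194 and 2258; 0.29), and PPP1CC, on chromosome 12, was lower (-0.25).

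Of the core spliceosome, 26 of 36 genes were higher and 1 lower in overexpression (median 0.32). SNRPA of the U1 particle (1053, 1143 and 987 against 2177, 2105 and 2185; 1.02) and SNRPF (0.95) were the highest, and PRPF6 was the 1 lower (-0.19). In knockdown 1 of 36 was lower, SNRPF at -0.42, on chromosome 12; 2.78% is below the share of all genes. Of 10 nonsense-mediated decay factors 2 were higher (UPF3B 0.66, UPF2 0.45) and 2 lower (SMG6 -0.39, SMG5 -0.33) in overexpression, shares close to the 22.9% and 20.5% of all genes. SMG9 (-0.54) and UPF2 (-0.47) were lower in knockdown, where 3.79% of all genes were.

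Splicing regulators of particular cell types held the largest fold changes past the threshold of these lists. SRRM4, a neuronal microexon factor encoded on chromosome 12, had 276, 347 and 342 in shControl and 28, 56.5 and 70.3 in GALNT7 KD (log2 fold change -2.71, SE 0.33, limma adjusted p=0.0065), and KHDRBS2 fell from 98, 92.8 and 102 to 40.6, 62.9 and 44.3 (-0.99). Both groups of values are well separated. ESRP1, an epithelial splicing regulator, had 14.3, 17.4 and 16.1 in the OE control and 64.1, 87.8 and 111 in GALNT7 OE (2.36, SE 0.25, limma adjusted p=0.00039), and NOVA1, another neuronal factor, was at 0.98. RBM47 (-0.87) and MBNL2 (-0.37) were lower in overexpression. In all, 9 of 15 were higher and 2 lower in overexpression, and 0 higher and 3 lower in knockdown.

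**Figure D4:**
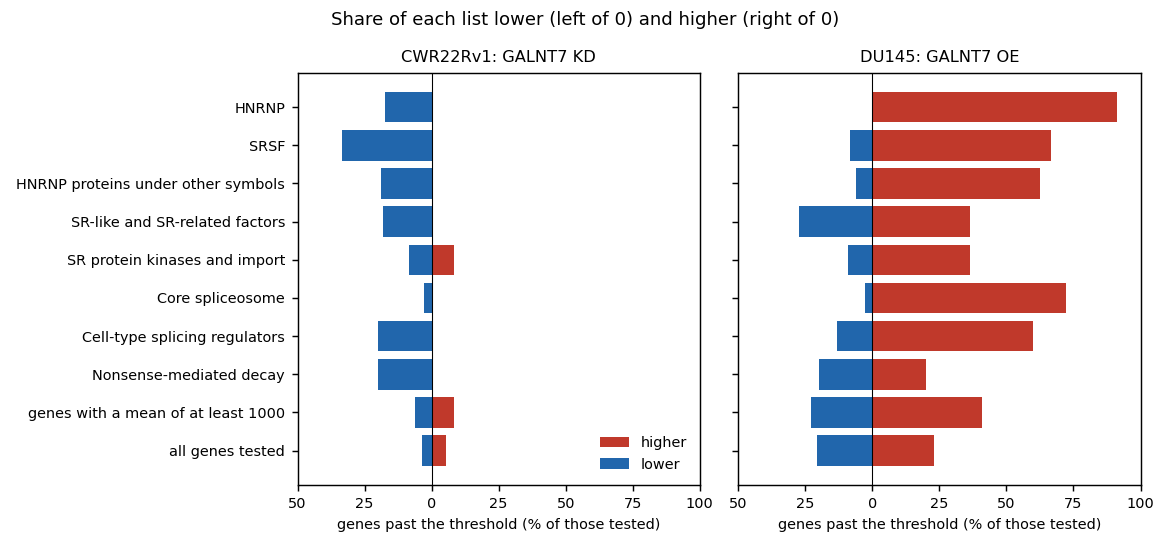
Share of the genes tested in each list that were higher (red, right of 0) or lower (blue, left of 0) at a limma adjusted p under 0.05, in percent, for GALNT7 KD (left) and GALNT7 OE (right). In overexpression the HNRNP genes (91.3% higher) exceed the 41% of genes with a mean of at least 1000 and the 22.9% of all genes, and in knockdown the SRSF genes have the longest blue bar (33.3%).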

How the data were processed

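RNA was extracted with RNeasy and libraries were made with a TruSeq stranded mRNA kit. The authors deposited 1 table per cell line of normalised counts, a signal equal to the reads on each Ensembl gene divided by a size factor of the library. Whole reads were recovered for 100% of the values (tolerance 0.01). The submitters' processing notes name hg38, FastQC, Salmon, DESeq2 and R 3.5.3 without their roles, so the reads may be estimates; whether counting used the strand is not given in the sources used here. GENCODE release 29 (GRCh38) named 56113 of 59424 identifiers. Lengths are medians over APPRIS principal transcripts.

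The members and gene lists were chosen with earlier results of these data known. Each line was tested on its own by limma 3.58.1 in R 4.3.3 (lmFit, then eBayes with a trend), on the log2 of the normalised count plus 1, over genes averaging at least 5, with Benjamini-Hochberg adjustment over all genes tested and a threshold of 0.05; this scale understates changes of low genes. The fits were also run on simulated data with 200 changed genes. There every gene had the same dispersion, unlike the replicates here, so that run gives no error rate for the members. Members given library by library are GALNT7, the 6 highest and 6 lowest past the threshold per comparison, those on chromosome 12, those called in both comparisons and 8 chosen as most studied. HNRNPH1, HNRNPA0, SRSF6 and SRSF4 were added after their values were seen. Of the lists, the genes with the 2 highest and 2 lowest changes past the threshold were named, and others past it where space allowed; some genes are not reported here. Alternatives were other pseudocounts, filters, scalings and thresholds, the replicate number as a block, no trend, each library left out, and edgeR 4.0.16 and DESeq2 1.42.0 on the recovered reads. Replicate pairs differed by more than sampling noise (mean chi-square per gene 8.85 to 24.2). RefSeq promoter windows came from a table for GRCh38.p14.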

Additional observations from a re-analysis of the deposited data

How the results depend on the processing

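The 8 knockdown calls rest on small changes and 3 libraries a group, and the values below show which of them held. Counts of genes lower in knockdown went from 4 to 1 (HNRNP) and from 4 to 0 (SRSF) when a log2 size of 0.5 or more was also required, and SRSF from 4 to 1 at an adjusted p of 0.01. Without the eBayes trend they were 2 (HNRNP), 1 (SRSF), 0 (SR-related), 1 (HNRNP under other symbols), 0 (decay factors) and 0 (kinases and import, where the higher count was also 0), with 579 of all genes higher and 417 lower. With DESeq2 on the recovered reads they were 9 (SR-related), 5 (cell-type regulators) and 4 (core spliceosome), with 2 kinases and import genes higher, as also at a mean of at least 50, and with 1490 of all genes higher and 1176 lower. With no filter 1 cell-type regulator was lower.

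Correlations of same-numbered deviations were -0.01 to 0.07, and those of differently numbered ones were -0.06 to 0.07. Such weak values over all genes cannot decide whether the replicate numbers pair the samples. With the replicate block, 5 of the 8 knockdown calls were kept (SRSF1, SRSF2 and SRSF9 were lost) and 29 of the 30 overexpression calls (SRSF8 was lost). Genes lower in knockdown under the block were 1 SRSF, 1 HNRNP under another symbol, 1 cell-type regulator and 3 of the core spliceosome, with 0 kinases and import genes higher, and 594 of all genes higher and 408 lower. In overexpression 0 core spliceosome genes were then lower, as without the trend.

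With each library left out in turn, genes lower in knockdown ranged from 1 to 2 (SRSF), 0 to 4 (SR-related), 1 to 2 (HNRNP under other symbols), 1 to 2 (cell-type regulators), 1 to 2 (core spliceosome), 0 to 1 (decay factors), 0 to 1 (kinases and import, with 0 higher) and 201 to 606 (all genes, with 305 to 730 higher). In overexpression 0 to 2 core spliceosome genes were lower and 1 to 2 decay factors higher.

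In overexpression 12 HNRNP and 4 SRSF genes were higher and 0 SRSF lower once a log2 size of 0.5 or more was required. At the 75th percentile and with quantile normalisation, 2 SRSF and 2 kinases and import genes were lower, and at the 75th percentile 2 HNRNPs under other symbols. Leaving the 10 most abundant genes out of the total gave HNRNP shares of 1.241% (shControl) and 1.13% (GALNT7 KD) and SRSF shares of 0.2608% and 0.2281%. In DU145 cells the HNRNP shares were then 0.5925% (OE control) and 0.8967% (GALNT7 OE), and the SRSF shares 0.1481% and 0.188%.

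Among the settings run, a sign changed for HNRNPA1 in knockdown, at 0.002 less the median of its chromosome, and for members past no threshold in that comparison. In knockdown the 75th percentile gave HNRNPF -0.013, SRSF4 -0.015 and SRSF8 -0.013, and quantile normalisation gave HNRNPC 0.031, SRSF4 -0.017 and SRSF8 -0.010. In overexpression HNRNPA0 was at -0.010 and -0.012 with these. Leaving out a library moved SRSF4 between -0.197 and 0.238 in knockdown and -0.006 and 0.484 in overexpression. In knockdown it moved HNRNPA0 between -0.009 and 0.069, HNRNPC between -0.047 and 0.000, HNRNPF between -0.015 and 0.022 and SRSF8 between -0.034 and 0.037. The cause of each change was not tested.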
